A study of Mus musculus with 17 samples.

Results

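RNA sequencing of mouse oocytes was used to follow 40 protein-coding genes of RNA splicing, RNA helicases and transcript processing, out of 2615 genes listed in the deposited count table. They were chosen by gene name, as *Bcas2* together with the listed protein-coding genes of 16 name families: the spliceosomal families *Snrp*, *Sf3*, *Prpf* and *Lsm*, the splicing regulators *Srsf* and *Hnrnp*, the RNA-binding motif genes *Rbm*, the helicases *Ddx* and *Dhx*, the 3′ end factors *Cpsf* and *Cstf*, the decay factors *Cnot* and *Exosc*, and the RNA polymerase subunits *Polr1*, *Polr2* and *Polr3*. The mouse annotation holds 239 protein-coding genes with such names, so the table lists 16.7% of them, against 10.3% of all annotated protein-coding genes. No gene of the *Dhx*, *Cpsf*, *Cnot* or *Polr1* families was among the listed genes, and the family members outside the table were not analysed here.

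The comparison was between 3 libraries of control oocytes, from Ehmt2(flox/flox) females, and 3 libraries of Ehmt2GKO oocytes, from Ehmt2(flox/flox); Gdf9-Cre females. All females were 8 weeks old and of the C57BL/6J strain, and the floxed *Ehmt2* alleles were present in both groups. *Ehmt2* encodes a histone methyltransferase that deposits H3K9me2. Cre driven by the *Gdf9* promoter removes its exons 4 to 20 in oocytes from the primordial follicle stage on, so that the oocytes had grown without the enzyme. The study reports that H3K9me2 staining in Ehmt2GKO oocytes was almost lost at an earlier stage, was then re-established, and did not differ from control at metaphase. The labels name the cells MII oocytes and the text of the study names them superovulated oocytes. The study also reports that few Ehmt2GKO oocytes completed meiosis I and that their homologous chromosomes failed to separate. Meiotic stage may therefore differ between the groups. It cannot be told apart from the genotype here, and its part in the values below was not tested. The number of oocytes per library is not given in the sources used here, and the reads of *Ehmt2* itself were not analysed here.

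Most protein-coding transcripts are made by RNA polymerase II, spliced by the spliceosome, cleaved and polyadenylated, and finally degraded by deadenylases and exonucleases. The spliceosome is built from small nuclear ribonucleoproteins (RNA and protein particles, with Sm or Lsm protein rings around the RNA) and from protein complexes such as the PRP19 complex. SR proteins and hnRNPs steer which exons are joined, and RNA helicases remodel the complexes. Full-grown oocytes are nearly silent in transcription and live on stored maternal transcripts, so a transcript level at this stage reflects storage and decay as well as synthesis.

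All 2615 listed genes had passed the adjusted P limit of 0.05 in the deposited comparison of these same 6 libraries. Every listed gene therefore already differed between the groups, and the P values below are descriptive. Reads on listed genes ranged from 4060653 to 4258350 per library, and this sum is not the depth of the library. The 40 genes took 1.20% to 1.27% of these reads in control oocytes and 1.09% to 1.18% in Ehmt2GKO oocytes. Nothing in the labels says that the libraries came from separate animals, so the P values measure the spread between libraries. In pooled RNA of this kind, fewer cells of a type and less RNA per cell cannot be told apart. Of 20 oocyte markers 7 were listed, with a summed level of 50690 to 61860 normalized counts in control and 58530 to 60420 in Ehmt2GKO libraries. Within this sum *Zp3* was called lower (log2 fold change −1.05), *Zp1*, *Zp2* and *Tle6* had −0.86 to −0.34, and *Padi6*, *Mos* and *Nlrp5* had 0.42 to 0.51. Of 24 cumulus and granulosa cell markers 2 were listed, neither of them at 0. *Ptgs2*, a cumulus expansion gene, was called higher, at 9.97 ± 3.77 normalized counts in control and 79.6 ± 22.9 in Ehmt2GKO libraries (SD, n = 3, log2 fold change 2.98), whereas *Kitl* had 344 ± 29.5 and 222 ± 36.1 (−0.63). Their sum, mostly *Kitl*, was 335.9 to 384.2 in control and 246.3 to 335.2 in Ehmt2GKO libraries. The part of these markers in the values below was not tested.

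The start regions of 5 members that passed both thresholds given below are printed here, to show the sequence context of called members of each direction. They are the 3 lower and the 2 higher members with the most reads among those with an entry in the RefSeq promoter table (build GRCm38.p6), and both higher ones lost their call without some libraries, as described below. Each runs from 250 bases before to 50 bases after the transcript start, 5′ to 3′ on the strand of the gene. The *Bcas2* window lies at chr3:103171405-103171704 on the plus strand and that of *Polr3k* at chr2:181864110-181864409 on the plus strand. The *Lsm5* window lies at chr6:56704650-56704949, the *Rbms3* window at chr9:117629864-117630163 and the *Rbm46* window at chr3:82876434-82876733, all on the minus strand. Capitals mark matches on either strand to 9 short motifs, which are named after the sequences.
Bcas2: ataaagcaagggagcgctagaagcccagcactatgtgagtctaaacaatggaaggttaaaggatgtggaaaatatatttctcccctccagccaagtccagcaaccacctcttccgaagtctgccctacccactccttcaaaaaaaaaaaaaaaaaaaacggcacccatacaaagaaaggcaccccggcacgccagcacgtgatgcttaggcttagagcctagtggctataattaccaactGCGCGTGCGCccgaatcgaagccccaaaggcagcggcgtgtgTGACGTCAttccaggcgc
Polr3k: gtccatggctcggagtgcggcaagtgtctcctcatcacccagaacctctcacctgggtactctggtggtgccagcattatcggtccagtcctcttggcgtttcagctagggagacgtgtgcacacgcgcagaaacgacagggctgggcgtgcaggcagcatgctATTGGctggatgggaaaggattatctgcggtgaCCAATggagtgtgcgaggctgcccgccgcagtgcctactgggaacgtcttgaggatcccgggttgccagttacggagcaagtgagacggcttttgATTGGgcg
Lsm5: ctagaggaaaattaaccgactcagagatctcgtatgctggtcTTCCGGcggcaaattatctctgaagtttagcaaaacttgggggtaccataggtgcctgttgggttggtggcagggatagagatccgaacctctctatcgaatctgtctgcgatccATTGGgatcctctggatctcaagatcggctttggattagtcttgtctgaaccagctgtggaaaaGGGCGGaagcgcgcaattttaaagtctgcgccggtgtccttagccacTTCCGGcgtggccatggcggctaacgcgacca
Rbms3: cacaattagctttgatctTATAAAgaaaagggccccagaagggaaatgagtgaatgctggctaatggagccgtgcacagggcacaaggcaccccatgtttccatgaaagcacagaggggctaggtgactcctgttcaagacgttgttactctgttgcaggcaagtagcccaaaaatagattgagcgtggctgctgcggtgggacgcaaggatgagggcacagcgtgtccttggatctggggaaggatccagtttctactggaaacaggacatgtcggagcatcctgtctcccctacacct
Rbm46: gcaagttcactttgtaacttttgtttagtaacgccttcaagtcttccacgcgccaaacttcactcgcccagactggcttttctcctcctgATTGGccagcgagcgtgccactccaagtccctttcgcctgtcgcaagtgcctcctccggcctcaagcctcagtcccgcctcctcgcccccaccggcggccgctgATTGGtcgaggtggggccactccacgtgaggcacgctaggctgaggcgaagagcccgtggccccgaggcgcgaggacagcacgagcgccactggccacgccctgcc

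The motifs were the GC box GGGCGG, the CCAAT box, the TATA box TATAAA, the ETS core CCGGAA, the CRE TGACGTCA, the NRF1 site, the YY1 core AANATGGC, the ZBTB33 site TCTCGCGA and the CTCF core, and matches of different motifs were allowed to overlap. The *Bcas2* window held 2 matches, a CRE and an NRF1 site. The *Lsm5* window held 4, of which 2 were the ETS core, 1 the GC box and 1 the CCAAT box. *Polr3k* held 3 and *Rbm46* held 2 CCAAT boxes, whereas the 1 match in *Rbms3* was a TATA box far upstream of the start. Among the 42 windows of the 33 members in the table, the ETS core occurred in 33.3%, against 25.2% of the windows of all listed genes and 14.9% of the 32851 windows of the table. The YY1 core occurred in 16.7% of member windows, 7.7% of windows of listed genes and 6.1% of all windows. The CRE was in 2 member windows (4.8%), those of *Bcas2* and *Snrpa*, against 2.9% of the windows of listed genes and 1.8% of all windows. The GC box was in 56.5% of the 23 windows of lower members, in 42.1% of the 19 windows of higher members and in 55.7% of the windows of listed genes. The NRF1 site was in 9.5% of member windows and 9.8% of the windows of listed genes, and the CTCF core in 4.8% and 10.1%. The CCAAT box was in 38.1% and 40.2%, the TATA box in 16.7% and 10.1%, and the ZBTB33 site matched no member window and 1.5% of the windows of listed genes. Member windows had a median GC content of 60.5% and 25 CG dinucleotides, against 58.7% and 17 in the windows of listed genes. Some genes have several windows, and a match is only a description of the letters. *Ddx39*, *Exosc9*, *Lsm4*, *Polr2d*, *Polr2g*, *Rbm44* and *Rbm8a* were the members without an entry.

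In Ehmt2GKO oocytes, 24 of the 40 members were lower and 16 were higher than in control oocytes. A gene was called where its levels differed by more than 2-fold with an adjusted P under 0.01 in edgeR's quasi-likelihood test, fitted over all 2516 listed genes with enough reads, and all 40 members were tested. Of these, 6 fell (*Rbms1*, *Lsm4*, *Polr2l*, *Lsm5*, *Bcas2* and *Polr3k*) and 4 rose (*Rbmx*, *Rbm46*, *Rbm44* and *Rbms3*). *Rbms1*, *Lsm4* and *Polr2l* had 10 or more reads in all 3 libraries only in control, and *Rbmx* only in Ehmt2GKO oocytes. They passed the read filter through the group in which they were higher, so the filter favoured the direction of their calls. These 10 calls are 25% of the members, against 35.7% of all genes tested. By direction, 15% of members were called lower against 16.9% of all genes, and 10% were called higher against 18.7%. Whether called or not, 60% of members were lower and 40% higher, against 50.6% and 49.4% of all genes tested. The median log2 fold change was −0.44 over members and −0.32 over all genes. Groups of libraries did not overlap for 38 members, 95% of them, against 98.3% of all genes. The exceptions were *Ddx18* and *Polr2j*.

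At a fold above 1.5, 26 of the 40 members were called, against 67.5% of all genes. The count of 4 that rose depended on the libraries used. It was 2 without control library 1, 2 without Ehmt2GKO library 3 and 1 without Ehmt2GKO library 4. When the fold itself was tested against 2 with edgeR's glmTreat, the count was 0, with 1 member at an unadjusted P below 0.05, whereas DESeq2 called 5 and limma voom 4 by the main thresholds. The 10 called members included 6 with a mean under 100 normalized counts, and their median was 45.3, against 637.3 for the 30 members not called.

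**Figure D1:**
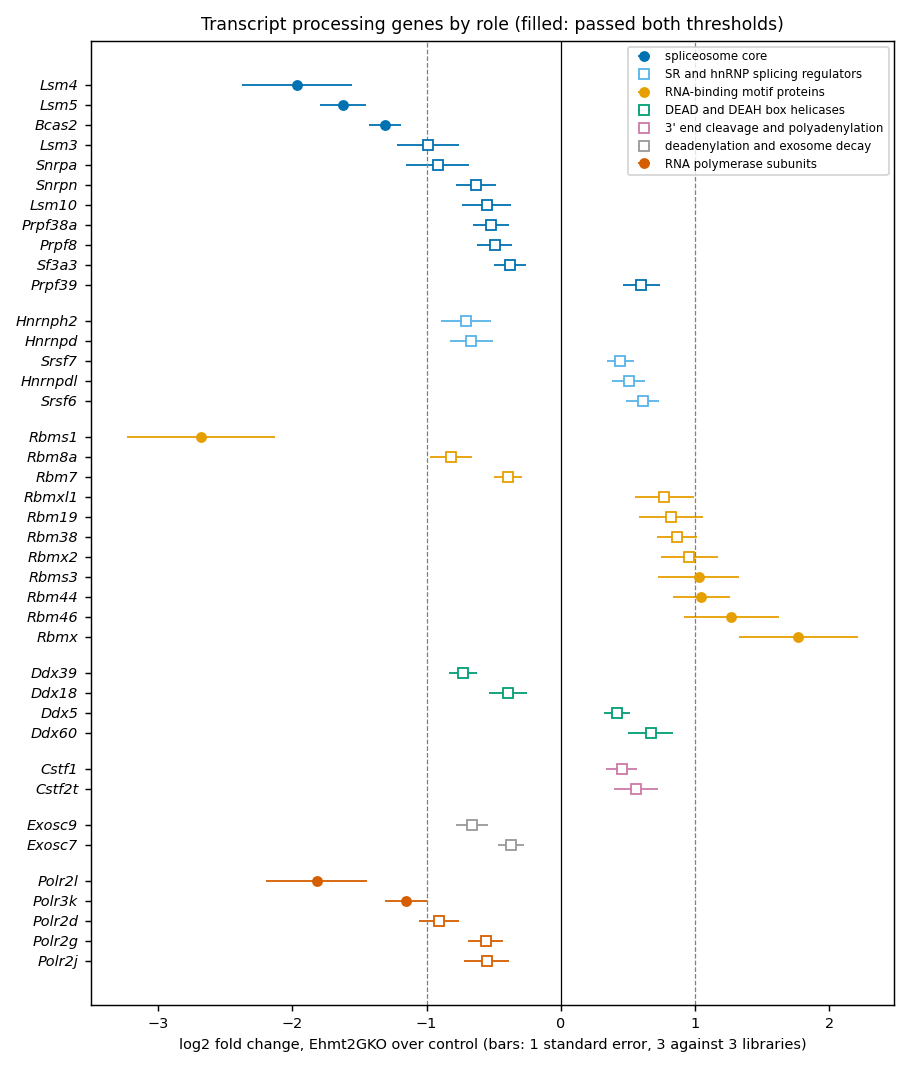
Log2 fold change of each of the 40 members, Ehmt2GKO over control oocytes, on the horizontal axis, with bars of 1 standard error from the edgeR fit of 3 against 3 libraries and members ordered within their role. Filled symbols are the 10 called members, dashed lines mark a fold of 2, and 10 of 11 members of the spliceosome core families (*Lsm10* of the U7 particle among them) and all 5 polymerase subunits lie left of 0, whereas 8 of 11 RNA-binding motif members lie right of it. Of all genes tested, 50.6% were lower and 49.4% higher.

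*Bcas2* and the *Snrp*, *Sf3*, *Prpf* and *Lsm* families, grouped by name as the spliceosome core, were lower in 10 of 11 cases, and 3 of them fell past the thresholds, with a median log2 fold change of −0.63. Of all genes tested, 50.6% were lower and 16.9% were called lower. Without *Lsm10*, whose product works outside the spliceosome, 9 of 10 core members were lower, with a median of −0.78. *Bcas2*, a component of the PRP19 complex that activates the spliceosome and the member that the study took further, had 1884, 1640 and 2167 normalized counts in control libraries 1, 2 and 6. It had 742, 799 and 759 in Ehmt2GKO libraries 3, 4 and 5. The lowest control library was above 2 times the highest Ehmt2GKO library, and the 3 Ehmt2GKO values were close together. *Bcas2* fell from 1897 ± 263 to 767 ± 29.3 (SD, n = 3 libraries each), a log2 fold change of −1.31 ± 0.12 (SE, edgeR adjusted P = 1.32e-07) with a 95% interval from −1.54 to −1.08. In glmTreat's test for a fold beyond 2, *Bcas2* had an adjusted P of 0.0162 and lost its call, as did *Lsm4* (0.0268), *Polr2l* (0.0372) and *Polr3k* (0.227), described below. The two-sided exact permutation test of 3 against 3 libraries gave P = 0.1, the smallest it can give. Any gene whose groups do not overlap reaches this value, as was so for 98.3% of all genes tested. The permutation test thus says nothing particular to *Bcas2*. The gene lies on chromosome 3 at 103171655 to 103179166 of GRCm38. The study had already reported lower *Bcas2* mRNA and lower BCAS2 protein in Ehmt2GKO oocytes. It also reported that chromosomes were misaligned in some MII oocytes in which *Bcas2* had been deleted with Gdf9-Cre.

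The *Lsm* genes encode the proteins of Sm-like rings, which hold U6 RNA in the spliceosome or, in another ring, decapped transcripts bound for decay. *Lsm5* had 838, 643 and 567 normalized counts in control libraries and 265, 181 and 218 in Ehmt2GKO libraries. It fell by 1.62 ± 0.17 on the log2 scale (SE, adjusted P = 7.28e-07). *Lsm4*, at 71.9, 69.2 and 49.9 against 22.4, 5.11 and 20.9, fell by 1.96 ± 0.41 (adjusted P = 0.000425). Ehmt2GKO library 4 rested on 5 reads of *Lsm4*, and both groups stayed apart for both genes. *Lsm3*, of the same rings, was near the fold threshold with a log2 fold change of −0.99 ± 0.23 and was called when control library 2, control library 6, Ehmt2GKO library 3 or Ehmt2GKO library 4 was left out. *Lsm10*, which belongs to the U7 particle of histone transcript processing and not to the spliceosome, had −0.55 ± 0.18.

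*Lsm5* shares long near-identical stretches with the processed pseudogenes *Gm7846* and *Gm10074*, and reads may have been split between these copies. Both are listed, with log2 fold changes of −1.88 ± 0.33 and −1.96 ± 0.42 and with 16 to 107 and 6 to 34 reads per library. Fewer reads were thus assigned to both copies in Ehmt2GKO oocytes, as to *Lsm5* itself. Whether the reads of the copies came from *Lsm5* was not tested.

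Among the other core members, *Snrpa* (the U1 snRNP protein A) had 109, 110 and 113 normalized counts in control and 60.4, 52.1 and 62.8 in Ehmt2GKO libraries. Its log2 fold change was −0.92 ± 0.23, short of the fold threshold, although the libraries within each group differed little. The exons of *Snrpa* share 327 nt with *BC024978* on the other strand. The processed pseudogenes *Gm21559* and *Gm8655* are near-identical over 62.6% of its transcript, so its reads may have been shared. *Snrpn*, an imprinted gene for a protein of the Sm ring, had 337, 345 and 344 against 247, 210 and 205, a log2 fold change of −0.63 ± 0.15. It shares exonic bases with *Snurf*, from the same transcript unit. *Sf3a3*, of the SF3A complex of the U2 snRNP, had 1855, 1485 and 1394 against 1261, 1155 and 1220 (log2 fold change −0.38 ± 0.12). *Prpf38a*, a spliceosome protein, had −0.52 ± 0.13, and *Prpf8*, the large protein at the centre of the spliceosome, had −0.49 ± 0.13. *Prpf39*, a U1 snRNP-associated factor, was the 1 core member with a higher level, at 495, 581 and 434 against 844, 724 and 719 (log2 fold change 0.60 ± 0.14), and its exons share 599 nt with *Fkbp3* on the other strand.

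The 5 RNA polymerase subunits were all lower, with a median log2 fold change of −0.91, and 2 fell past the thresholds. Among all genes tested, 50.6% were lower and 16.9% were called lower. *Polr3k*, a small subunit of RNA polymerase III, which makes tRNAs and other short RNAs, had 1082, 1281 and 1640 normalized counts in control libraries and 679, 634 and 487 in Ehmt2GKO libraries. Its log2 fold change was −1.15 ± 0.15 (SE, adjusted P = 8.70e-06). Without control library 6, which held the highest value, it was −0.98 and no longer past the fold threshold. *Polr2l*, a subunit common to the 3 nuclear polymerases, had 49.3, 46.1 and 46.0 against 16.6, 16.4 and 6.98, with a log2 fold change of −1.82 ± 0.38 (adjusted P = 0.000408).

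*Polr2d*, which forms the stalk of RNA polymerase II together with *Polr2g*, had 6898, 4999 and 4350 normalized counts in control and 3397, 2612 and 2655 in Ehmt2GKO oocytes. The log2 fold change was −0.91 ± 0.15, and the gene was called when control library 6 or Ehmt2GKO library 3 was left out, at −1.05 each time. *Polr2g* had −0.56 ± 0.13. *Polr2j*, at 2466, 1524 and 2050 against 1686, 1395 and 1044, had −0.55 ± 0.17, and its groups overlapped, since Ehmt2GKO library 3 was above control library 2.

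**Figure D2:**
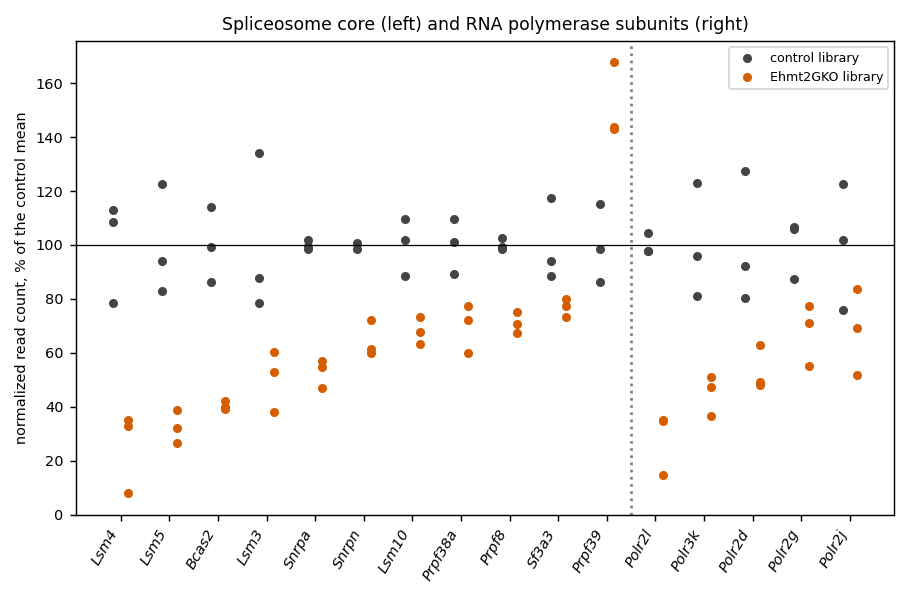
Normalized read count of each spliceosome core member (left of the dotted line) and each RNA polymerase subunit (right), as a percentage of that gene's control mean, with 1 point per library, 3 control and 3 Ehmt2GKO. The Ehmt2GKO points lie under the control points of the same gene for every gene shown except *Prpf39*, where they lie above, and *Polr2j*, where the groups overlap.

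RNA-binding motif genes had called members in both directions. Of 11 members 8 were higher, 4 of these rose past the thresholds and 1 of the 3 lower ones fell, and the median log2 fold change was 0.87. Over all genes tested, 49.4% were higher, 18.7% were called higher and 16.9% were called lower. *Rbm44*, a germ cell RNA-binding protein, had 154, 121 and 129 normalized counts in control and 287, 353 and 197 in Ehmt2GKO libraries. It rose by 1.05 ± 0.21 on the log2 scale (SE, adjusted P = 0.000320), and the value was 0.84 without Ehmt2GKO library 4 and 0.97 without control library 2, under the fold threshold both times. *Rbm46*, needed for germ cell entry into meiosis, had 19.5, 29.1 and 27.4 against 36.0, 70.5 and 77.8 and rose by 1.27 ± 0.35 (adjusted P = 0.00292). Its lowest Ehmt2GKO value was near the highest control value, and the call was lost without control library 1, Ehmt2GKO library 4 or Ehmt2GKO library 5, where the adjusted P was 0.0157, 0.0145 and 0.0195.

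*Rbmx*, the X-linked hnRNP G, rested on 4 to 10 reads in control and 23 to 33 reads in Ehmt2GKO libraries. At 9.25, 10.03 and 3.92 against 32.1, 23.5 and 23.9 normalized counts, it rose by 1.77 ± 0.44 (adjusted P = 0.00155), a call that was lost without control library 6 or Ehmt2GKO library 3. *Rbms3*, a cytoplasmic single-strand binding protein, had 29.8, 37.1 and 26.4 against 73.0, 65.4 and 51.9 and rose by 1.03 ± 0.30 (adjusted P = 0.00438). Leaving out control library 1 or 6 or Ehmt2GKO library 3 or 4 ended the call, with values from 0.90 to 1.00. *Rbms1*, the paralogue of *Rbms3*, moved the other way. It had 33.9, 18.1 and 20.6 normalized counts in control and 0.974, 5.11 and 4.99 in Ehmt2GKO libraries, and fell by 2.68 ± 0.55 (adjusted P = 0.000380), on 1, 5 and 5 reads in the Ehmt2GKO libraries.

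**Figure D3:**
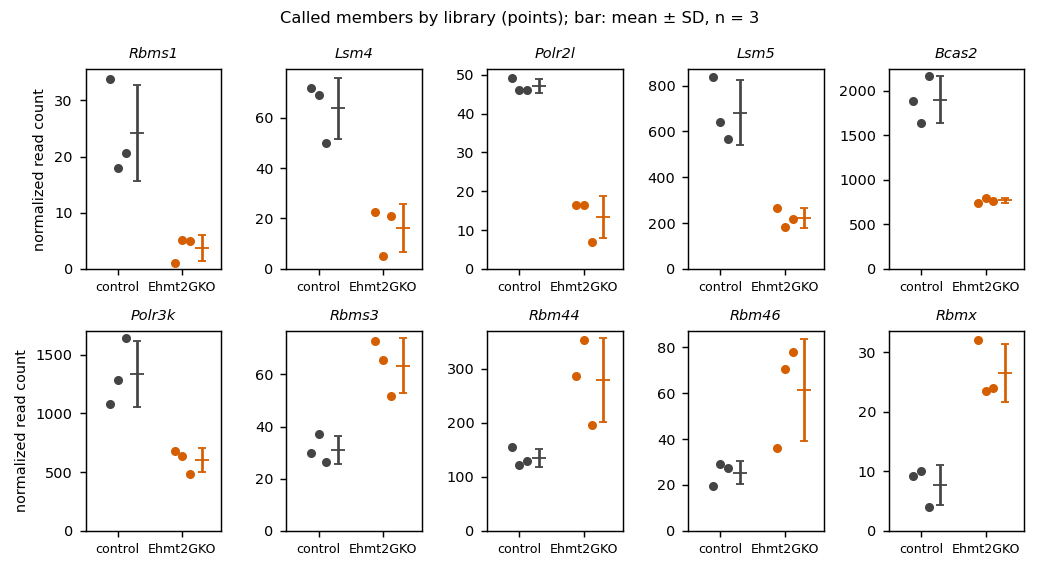
Normalized read counts (vertical axis, from 0) of the 10 called members in each of 3 control and 3 Ehmt2GKO libraries, with the mean and SD beside the points and 1 panel per gene. *Bcas2*, *Polr3k*, *Lsm5* and *Rbm44* have more than 100 counts in every library, whereas *Rbms1*, *Lsm4*, *Polr2l* and *Rbmx* have libraries with fewer than 10.

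The remaining RNA-binding motif members did not pass the thresholds. *Rbm38*, which binds AU-rich elements and stabilizes p21 mRNA, had 1068, 726 and 1000 normalized counts against 1688, 1402 and 2008 (log2 fold change 0.87 ± 0.15). *Rbmx2*, a spliceosome-associated factor on the X chromosome, had 0.96 ± 0.21 and was called under DESeq2. *Rbm19*, of ribosome assembly, had 0.82 ± 0.24 and *Rbmxl1*, a retrogene of *Rbmx*, 0.77 ± 0.22. *Rbmxl1* is 99.6% identical over 95.2% of its transcript to *Gm7324*, which is listed with 23 to 36 reads in control and 148 to 177 in Ehmt2GKO libraries (log2 fold change 2.53 ± 0.25), so their reads may have been split. *Rbm8a*, a core protein of the exon junction complex, had 566, 473 and 416 against 267, 246 and 311 (log2 fold change −0.82 ± 0.15). *Rbm7*, of the nuclear exosome targeting complex, had 8424, 9888 and 9882 against 7042, 7386 and 7038, a log2 fold change of −0.39 ± 0.10.

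SR proteins and hnRNPs, which promote or repress the use of exons, had no called member. *Srsf7* had 2702, 2704 and 2750 normalized counts in control and 3856, 3862 and 3378 in Ehmt2GKO libraries, a log2 fold change of 0.44 ± 0.10. *Srsf6* had 442, 540 and 519 against 748, 771 and 770 (0.61 ± 0.12). *Hnrnpdl* had 1476, 1542 and 1163 against 2090, 1709 and 2137 (0.51 ± 0.12). Both *Srsf* members and *Hnrnpdl* were thus higher, and the other 2 were lower. *Hnrnph2* had 228, 250 and 182 against 144, 125 and 135 (−0.71 ± 0.19), and *Hnrnpd*, which also binds AU-rich elements of unstable transcripts, had −0.67 ± 0.16.

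The 4 DEAD box helicases were divided, 2 higher and 2 lower, with no call. *Ddx5* (p68), a coregulator of transcription and splicing, had 7967, 8544 and 8705 normalized counts in control and 11130, 11360 and 11210 in Ehmt2GKO libraries, a log2 fold change of 0.42 ± 0.10. *Ddx60*, known from antiviral responses, had 497, 313 and 317 against 616, 623 and 555 (0.67 ± 0.17). *Ddx39*, a homologue of the mRNA export helicase UAP56, had 1633, 1600 and 1553 against 942, 939 and 1004 (−0.73 ± 0.10). The 3 libraries of each group were close to each other for *Ddx39* and *Ddx5*. *Ddx18*, of ribosome assembly, had 1307, 1024 and 835 against 848, 780 and 778 (−0.40 ± 0.14), with 1 Ehmt2GKO value above the lowest control value. *Ddx39* shares 895 nt of exons with the oppositely oriented *Adgre5*. *Ddx5* and *Ddx18* have near-identical processed pseudogenes, *Gm12183* and *Gm16433* among them, so reads of these helicases may have been shared with other genes.

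Factors of the 3′ end and of decay had no called member. *Cstf1*, a subunit of the cleavage stimulation factor, had 2100, 2201 and 2455 normalized counts against 2667, 3079 and 3503 (log2 fold change 0.45 ± 0.11). *Cstf2t*, the autosomal retrogene paralogue of the RNA-binding subunit CstF-64, had 171, 178 and 165 against 275, 237 and 245 (0.56 ± 0.16). The 2 listed subunits of the RNA exosome, the 3′ to 5′ exonuclease, were lower. *Exosc9* had 826, 744 and 788 against 505, 522 and 467 (−0.66 ± 0.12), and *Exosc7* had 3218, 2817 and 3140 against 2438, 2356 and 2295 (−0.37 ± 0.10). *Exosc9* shares 510 nt of exons with the oppositely oriented *Ccna2*, which is listed at a log2 fold change of 0.42.

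Per length of the longest annotated coding transcript, member levels in control oocytes ran from 2.49 normalized counts per kb for *Rbmx* to 5336 for *Polr2d*. *Rbm7* (3575), *Exosc7* (2904), *Ddx5* (2362) and *Polr2j* (2237) followed *Polr2d*, and *Rbms3* (3.93) and *Rbms1* (5.45) stood next to *Rbmx*. Polymerase subunits had the highest median of the roles, at 1825 per kb, and RNA-binding motif genes the lowest, at 35.0.

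The lower members had shorter transcripts at the median than the higher members. The median length was 1633.5 nt for the 24 lower and 3489 nt for the 16 higher members. Over the 40 members, length and log2 fold change had a Spearman correlation of 0.39, against 0.18 over the other 2153 protein-coding genes tested, values across genes that share the same 6 libraries. All 6 members of up to 1000 nt were lower, as were 78.0% of the other genes of that length, and 8 of 10 members of 1000 to 2000 nt, against 63.6%. Above 4000 nt, 3 of 8 members (37.5%) were lower, against 38.1% of the other genes. The core spliceosome members had a median of 1467 nt and the polymerase subunits 1015 nt, against 2757 nt for the RNA-binding motif genes. *Prpf8*, at 7442 nt, and *Rbms1*, at 4436 nt, were long and lower.

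**Figure D4:**
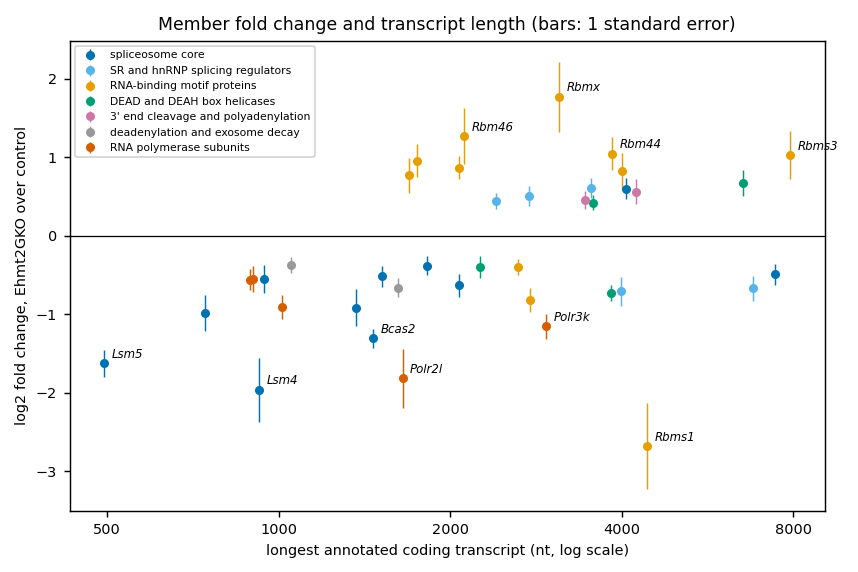
Log2 fold change (vertical axis, bars of 1 standard error) against the length of the longest annotated coding transcript (horizontal axis, log scale, nt) for the 40 members, coloured by role, with the 10 called members named. All 6 members of up to 1000 nt lie below 0, whereas members above 2000 nt lie on both sides of it.

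Libraries of the same group also differed along transcript length. Between a library and the other libraries of its group, the Spearman correlation of length with the log2 difference over 2193 protein-coding genes was −0.09, 0.07 and 0.02 for control libraries 1, 2 and 6 and −0.20, 0.04 and 0.16 for Ehmt2GKO libraries 3, 4 and 5. Control library 1 was the highest of its group for 14 of the 24 lower members and control library 6 the lowest for 12. Ehmt2GKO library 3 was the highest of its group for 13 of the 24 lower members and Ehmt2GKO library 5 the lowest for 13. The part of length in the values of the members was not tested.

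Other genes of the same pathways were taken from 4 lists of 256 genes that are not members, of which 35 were in the table and all 35 were tested. Of these, 22 were higher and 13 lower, and the median log2 fold change was 0.41. With 2 called in each direction, 4 of the 35 were called, against 35.7% of all genes tested. Among 10 further spliceosome genes, 5 were higher and 5 lower. *Cwc22*, which brings the exon junction complex to the spliceosome, had 1821, 1613 and 1533 normalized counts in control and 210, 202 and 208 in Ehmt2GKO libraries. It fell, with a log2 fold change of −3.00 ± 0.12 (SE, adjusted P = 5.32e-12), although 7 annotated genes near-identical to it (96.9% identity over 71.9% of the transcript) may have shared its reads. *Phf5a*, of the SF3B complex, had 1906, 1544 and 1946 against 1037, 804 and 672 and fell by 1.10 ± 0.14 (adjusted P = 6.74e-06), a value of −0.96 without Ehmt2GKO library 5.

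Of 7 other splicing regulators 6 were higher and 1 lower. *Srpk3*, an SR protein kinase known from muscle, had 1, 1 and 0 reads in control libraries and 19, 14 and 22 in Ehmt2GKO libraries. The ratio was 27.4, with a 95% exact interval from 7.22 to 232 that covers counting error only. *Srpk3* passed the read filter only through its Ehmt2GKO libraries, so it could only be called higher. It was not tested when at least 10 counts were required in every library. Of 14 further factors of polyadenylation and decay, 9 were higher and 5 lower. *Btg3*, of the BTG family that binds the deadenylase complex, had 32.9, 19.1 and 49.0 normalized counts against 144, 122 and 131 and rose by 1.97 ± 0.30 (adjusted P = 2.82e-05). Of 4 further transcription elongation and initiation genes, 2 were higher and 2 lower, and none was called by edgeR.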

How the data were processed

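RNA from the 6 oocyte libraries was amplified with Smart-Seq v4, a kit that does not mark strand. The submitters' processing notes name HISAT2 and DESeq2 on GRCm38, whereas the counting program and the annotation are not given in the sources used here. The authors deposited whole-number read counts per gene, without normalization, and the same table holds the fold changes of their own comparison (a ratio and a log2 value) with P-values. These were not used, except that the highest adjusted P, 0.0498, was read to learn how the table had been selected. Strand was not recorded, so 11 members that share exonic bases with another gene, 9 of them on the opposite strand, and 5 members with a near-identical copy (blastn 2.17.0, 95% or more identical across 50% or more of the transcript) are uncertain in that respect.

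The quasi-likelihood F-test of edgeR 4.0.16 was run in R 4.3.3 (filterByExpr with a minimum count of 10, TMM scaling, Benjamini-Hochberg adjustment over the 2516 genes tested). The fit was tested on simulated data. Normalized counts are counts divided by the effective library size relative to its mean (0.973 to 1.03). TMM assumes that most genes do not change, which a table of selected genes does not meet. DESeq2 1.42.0, limma voom (limma 3.58.1), other normalizations, filters and thresholds, and leaving out each library were the alternatives. Gene lengths and names came from GENCODE vM21, in which all 40 members were found, 35 with identical coordinates. Python 3.11.15, pandas 2.3.3, scipy 1.17.1 and matplotlib 3.10.9 were used for summaries and figures. Intervals of read ratios cover counting error only.

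The members and the lists were chosen with earlier results of these data known. The rule for named genes took *Bcas2*, all called members, and in each role the largest change in each direction among members with at least 100 mean normalized counts and the 2 with the highest mean count, and called genes of the pathway lists. The other members, the cell type markers and the genes named for shared reads were added after their values were seen. Replicates of a group were distinct libraries by a chi-square comparison of their counts. The 11 bisulfite sequencing samples were not analysed here.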

Additional observations from a re-analysis of the deposited data

How the results depend on the processing

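The 10 calls among the members rested on the fold threshold. They became 2 when the fold was tested against 2, of which 0 were higher and 2 (*Rbms1* and *Lsm5*) lower, and 26 at a fold above 1.5, with 11 higher and 15 lower, against 67.5% of all genes called at that fold. With at least 10 counts in every library, 7 members were called, of which 6 were among the 10 of the report. Of the 7, 3 members were lower, since *Lsm4*, *Polr2l* and *Rbms1* were no longer tested. The higher ones stayed at 4, because *Rbmx* dropped out and *Rbmx2* was gained. The test against 2 uses the same estimate for *Bcas2* (−1.31) and gave an edgeR adjusted P of 0.0162, so its call was lost. Other normalizations of edgeR, DESeq2, limma voom and no filter called 10 or 11 members, the 10 of the report among them, and *Rbmx2* was the one gained. Other genes of the pathway called numbered 7 with RLE, 7 with upper-quartile scaling, 7 with DESeq2 and 14 at a fold above 1.5, against 4.

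Leaving out 1 library at a time gave 8 to 10 members called, 1 to 4 higher and 6 to 8 lower, 16 of 40 with a log2 fold change above 0 every time, 3 to 6 other pathway genes called and a log2 fold change of *Bcas2* from −1.41 to −1.21. No member changed sign under any scaling, and the median over all genes moved by at most 0.09. Of 460 values of the 31 other named genes, *Bcas2* left out, 428 kept direction and side of the threshold, 21 lost the call, 11 gained it and 0 reversed. No paired analysis was possible because control and Ehmt2GKO libraries carry different numbers. The P values describe genes already selected on this contrast, 3 libraries per group set the precision, and members with fewer than 10 reads in a library carry a large counting error. No group had the 4 samples that a test for a far-off library needs.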
